A study of Rattus norvegicus with 8 samples.

Results

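The chaperonin TRiC, also called CCT, is built from 8 related subunits, and the 8 genes that encode them in the rat, Tcp1, Cct2, Cct3, Cct4, Cct5, Cct6a, Cct7 and Cct8, were followed in veins of arteriovenous fistulas (AVF). They were matched by gene name and are 8 of the 32623 genes listed. All 8 names were found once and under 1 identifier each, and all 8 passed the filter on low counts that left 11682 genes for testing. The complex was selected on the measured level of Tcp1, its alpha subunit, which had been seen to separate veins treated with β-aminopropionitrile (BAPN) from vehicle veins in these libraries. The values of Tcp1 in that comparison are therefore a description with no test. The other 7 subunits were counted apart from it, but they come from the same libraries and the same contrast, so their counts describe the complex and are not independent evidence of a direction.

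TRiC is a cytosolic folding machine of stacked rings, each holding 1 copy of every subunit, which takes an unfolded protein into its cavity and closes over it as ATP is hydrolysed. Its best known clients are actin and tubulin, which do not reach their native state without it, and a wider set of proteins that includes the beta subunits of heterotrimeric G proteins. Prefoldin hands nascent actin and tubulin to the rings, phosducin-like proteins act at the rings as cofactors, and tubulin cofactors take the folded tubulins on to the alpha-beta dimer. In a vessel wall these clients form the contractile actin of smooth muscle and the cytoskeleton of every cell.

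RNA was sequenced from the epigastric outflow vein of Sprague Dawley rats 21 days after the vein had been joined end to side to the femoral artery. In 4 rats (BAPN 1 to 4) the vein was wrapped in a bilayer nanofiber scaffold releasing BAPN, an inhibitor of lysyl oxidase, the enzyme that crosslinks collagen and elastin. In 4 others (Vehicle 1 to 4) the scaffold carried no drug, so both groups had the fistula, the surgery and the polymer, and no vein without a scaffold is used here. BAPN 1 to 3, Vehicle 1 and Vehicle 2 came from females, and BAPN 4, Vehicle 3 and Vehicle 4 from males, while ages were not given in the sources used here. Total counts ran from 45039451 to 52241007 in the BAPN libraries and from 19548203 to 22442050 in the vehicle libraries, and the smallest BAPN total was 2.01 times the largest vehicle total. Depth, and any sequencing run that may go with it, therefore cannot be told apart from treatment. Thinning every library to the smallest total, which evens out counting noise only, left all 7 counted subunits past the test. Counts mapped to 13 mitochondrial gene names took 4.62 to 7.80% of the BAPN libraries and 4.46 to 5.41% of the vehicle libraries.

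The promoters of the subunits are shown because 8 transcripts of one machine were compared, and the letters let a reader see what the start regions share and where they differ. RefSeq (build GRCr8) gave 300 bases for each of the 8 genes, from 250 before the annotated start to 50 after it, and 3 motifs were searched on both strands. They were the heat shock element GAANNTTC, bound by heat shock factors, the CCAAT box, bound by NF-Y, and the ETS core CCGGAAG. None of the 3 sets of letters overlaps another in these windows. The 4 printed below are Tcp1, the gene that chose the complex, Cct4 and Cct3, which hold a heat shock element and the most CCAAT boxes, and Cct2, the subunit with the largest difference between the groups. They lie at chr1:50384478-50384777 on the minus strand (Tcp1), chr14:101192807-101193106 on the plus strand (Cct4), chr2:176063279-176063578 on the plus strand (Cct3) and chr7:54591356-54591655 on the minus strand (Cct2). Each runs 5′ to 3′ along its gene, with motif matches in capitals and all other bases in lower case.
Tcp1: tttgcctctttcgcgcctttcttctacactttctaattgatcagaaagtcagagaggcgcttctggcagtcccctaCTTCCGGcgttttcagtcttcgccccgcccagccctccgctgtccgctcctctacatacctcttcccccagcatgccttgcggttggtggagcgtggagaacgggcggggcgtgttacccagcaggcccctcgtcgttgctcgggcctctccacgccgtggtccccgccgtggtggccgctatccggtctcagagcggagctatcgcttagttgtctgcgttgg
Cct4: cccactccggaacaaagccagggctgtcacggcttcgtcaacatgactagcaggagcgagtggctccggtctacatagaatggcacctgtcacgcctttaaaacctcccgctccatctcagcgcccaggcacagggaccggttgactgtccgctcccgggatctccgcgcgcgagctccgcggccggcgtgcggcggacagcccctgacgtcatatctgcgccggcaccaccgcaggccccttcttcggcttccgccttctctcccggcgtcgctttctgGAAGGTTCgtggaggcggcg
Cct3: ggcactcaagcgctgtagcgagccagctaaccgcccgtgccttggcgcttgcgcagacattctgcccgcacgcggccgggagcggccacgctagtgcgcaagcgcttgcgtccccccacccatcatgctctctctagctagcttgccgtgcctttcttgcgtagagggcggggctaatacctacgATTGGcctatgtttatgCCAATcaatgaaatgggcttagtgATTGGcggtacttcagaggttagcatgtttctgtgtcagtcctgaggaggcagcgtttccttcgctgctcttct
Cct2: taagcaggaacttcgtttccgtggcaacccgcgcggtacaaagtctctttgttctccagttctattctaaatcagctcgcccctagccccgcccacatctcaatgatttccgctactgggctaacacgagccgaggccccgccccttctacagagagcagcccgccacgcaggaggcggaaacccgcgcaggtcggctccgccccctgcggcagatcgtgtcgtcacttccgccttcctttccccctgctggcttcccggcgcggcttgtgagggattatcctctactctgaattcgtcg

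A CCAAT box stood in 5 of the 8 promoters (Cct3, Cct5, Cct6a, Cct7 and Cct8), against 37.5% of the 33469 rat promoters in the table. The 3 copies in Cct3 begin 65, 48 and 24 bases before the start, the first and last of them on the minus strand. The heat shock element was found in 1 of 8, in Cct4, beginning 31 bases after the start, against 8.59% of all promoters. An ETS core was found in 1 of 8, on the minus strand of Tcp1 from 174 bases before the start, against 8.75% of all promoters. The Cct2 window held none of the 3. The GC content of the 8 windows ran from 52.3% in Cct8 to 66% in Cct4 and Cct7, against a median of 51.7% over all promoters. A match is a description of letters and not of binding, and none of the promoters was assayed here.

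Every subunit had more transcript in the veins with BAPN scaffolds than in those with vehicle scaffolds. Summed over the 8 genes, TRiC reached 1263 to 1350 CPM (read counts scaled to a common library size through tested-gene totals and edgeR's TMM factors) in the BAPN libraries and 906 to 985 CPM in the vehicle libraries. The group means were 1303 ± 37.3 and 957.5 ± 35.3 CPM (SD, n = 4 each), a ratio of 1.36. For Tcp1 the lowest BAPN library lay above the highest vehicle library by the way it was chosen. The same held for all 7 other subunits, a pattern seen in 12.7% of all tested genes in this direction and, in either direction, in 24.7%. In edgeR's quasi-likelihood test, with p-values adjusted by Benjamini-Hochberg over 11682 genes, all 7 subunits other than Tcp1 rose at an adjusted p below 0.05. The same test called 16.8% of all tested genes, 7.5% as higher and 9.25% as lower with BAPN, and DESeq2, which also called all 7, called 27.4% of the 11667 genes it tested.

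**Figure D1:**
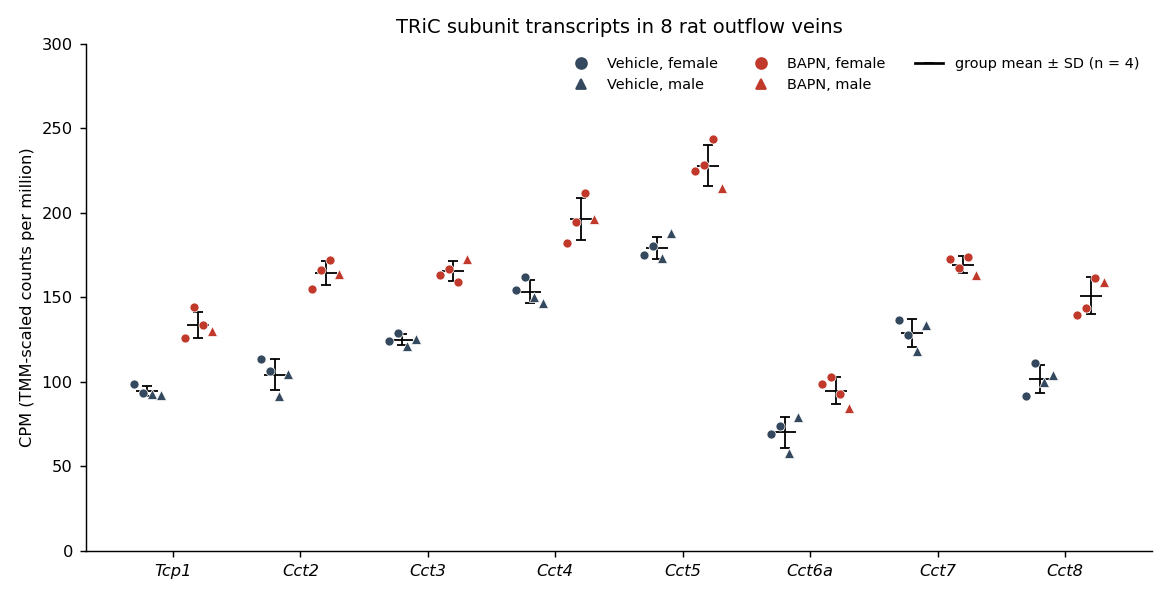
CPM of each TRiC subunit in the 8 libraries (vertical axis, linear), with vehicle in blue and BAPN in red, circles for females and triangles for males, and bars for the group mean ± SD (n = 4). For every subunit the 4 BAPN points lie above the 4 vehicle points, closest for Cct6a (84.6 against 79.4 CPM) and farthest apart in ratio for Cct2 (155 against 114 CPM).

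Tcp1 (ENSRNOG00000014160), the alpha subunit after which the complex was once named, stood at 126, 144, 134 and 130.2 CPM in BAPN 1 to 4 and at 99.0, 93.7, 92.9 and 92.3 CPM in Vehicle 1 to 4. Its vehicle libraries were tightly grouped and its lowest BAPN value was 1.28 times the highest vehicle value. The log2 fold change was 0.50 (SE 0.09), with means of 134 ± 7.71 and 94.5 ± 3.04 CPM (SD, n = 4 each).

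Cct2 (ENSRNOG00000021317), the beta subunit, had the largest difference of the 8. It stood at 155, 166, 172 and 164 CPM in BAPN 1 to 4 and at 114, 107, 91.9 and 105 CPM in Vehicle 1 to 4, Vehicle 3 being the lowest library. The means of 164 ± 7.15 and 104 ± 9.13 CPM (SD, n = 4 each) differed by a log2 fold change of 0.66 (SE 0.11, edgeR adjusted p = 0.00946). This was the only one of the 7 counted subunits to pass the threshold without any 1 of the 8 libraries, with adjusted p between 0.0128 and 0.0301.

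Cct8 (ENSRNOG00000001592), the theta subunit, followed, at 139.8, 144, 162 and 159 CPM in BAPN 1 to 4 and 91.6, 111, 100.3 and 104 CPM in Vehicle 1 to 4. Its lowest vehicle library was Vehicle 1 and not Vehicle 3, so the low vehicle libraries of Cct2 and Cct8 were not the same. The means were 151 ± 11 and 102 ± 8.13 CPM (SD, n = 4 each), with a log2 fold change of 0.57 (SE 0.11, edgeR adjusted p = 0.0139). Without Vehicle 1 the fold change was 0.52 and the edgeR adjusted p 0.0504.

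Cct6a (ENSRNOG00000000923), the zeta subunit of most tissues, was the most variable. It stood at 99.1, 103, 92.8 and 84.6 CPM in BAPN 1 to 4 and at 69.2, 74.1, 58.2 and 79.4 CPM in Vehicle 1 to 4, so that the male BAPN 4 came within 1.07 times the male Vehicle 4. The standard deviation was 8.38% of the BAPN mean and 12.9% of the vehicle mean. The log2 fold change was 0.43 (SE 0.12, edgeR adjusted p = 0.0384), and it passed the threshold in 2 of the 8 fits that left out 1 library.

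Cct3 (ENSRNOG00000019090), the gamma subunit, had little spread in either group, at 163, 167, 159 and 173 CPM in BAPN 1 to 4 and 124, 129, 121 and 125 CPM in Vehicle 1 to 4. Its log2 fold change of 0.41 had an SE of 0.09 and an edgeR adjusted p of 0.0221. Cct7 (ENSRNOG00000015630), the eta subunit, stood at 173, 167, 174 and 163 CPM in BAPN 1 to 4 and 137, 128, 118 and 134 CPM in Vehicle 1 to 4. The groups were apart for both genes, and for Cct7 the log2 fold change was 0.39 (SE 0.10, edgeR adjusted p = 0.0283). Of the 8 fits that left out 1 library, Cct3 passed the threshold in 5 and Cct7 in 1. The means were 166 ± 5.78 and 125 ± 3.35 CPM for Cct3 and 169 ± 5.07 and 129 ± 8.24 CPM for Cct7 (SD, n = 4 each).

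Cct4 (ENSRNOG00000009642) and Cct5 (ENSRNOG00000011632), the delta and epsilon subunits, can each assemble into rings without the others when made in bacteria, and they had the smallest differences here. Cct4 stood at 182, 195, 212 and 197 CPM in BAPN 1 to 4 and 154, 162, 151 and 147 CPM in Vehicle 1 to 4, with a log2 fold change of 0.36 (SE 0.10, edgeR adjusted p = 0.0416). Cct5 stood at 225, 229, 244 and 215 CPM in BAPN 1 to 4 and 175, 180.4, 173 and 188 CPM in Vehicle 1 to 4, with a log2 fold change of 0.35 (SE 0.10, edgeR adjusted p = 0.0445). Although their groups did not overlap, Cct5 missed the threshold in all 8 fits that left out 1 library and Cct4 in 7 of them.

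In order of log2 fold change the 8 were Cct2, Cct8, Tcp1, Cct6a, Cct3, Cct7, Cct4 and Cct5, and the step between each pair of neighbours was smaller than the SE of either gene. Without Tcp1 the median of the other 7 was 0.41. Over all tested genes the median was 0.02 (quartiles -0.32 and 0.30), and 1990 of the 11682 lay above the median of the 7. The SE of the subunits, 0.09 to 0.12, was low beside the median of 0.18 over all genes. The fold changes of the 7 subunits other than Tcp1 were above 0 in every fit. So was that of Tcp1, a sign set by the way it was chosen. The count of 7 called subunits fell to 3, 2, 3 and 2 when BAPN 1, 2, 3 or 4 was left out in turn, and to 1, 6, 3 and 4 when Vehicle 1, 2, 3 or 4 was. It was 3 with sex in the fit, 3 with libraries scaled by total counts only, and 0 in the 5 females alone, where 6 had an unadjusted p under 0.05 in edgeR.

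The make-up of the pool was compared through each gene's share of the counts on the 8 subunits, a measure on which a rise common to all 8 leaves no trace. Cct2 took 12.3 to 12.8% of these counts with BAPN and 10.1 to 11.8% with vehicle, without overlap. Cct5 went the other way, with 16.7 to 18.1% against 18.2 to 19.3%, also without overlap. The remaining 6 shares overlapped between the groups, with means of 11.6 and 10.6% for Cct8, 10.2 and 9.88% for Tcp1 and 15.1 and 16.0% for Cct4 with BAPN and vehicle. No share of any subunit differed by more than 1.74 percentage points. These shares compare the groups and do not rank the subunits by abundance, since no transcript lengths were at hand.

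**Figure D2:**
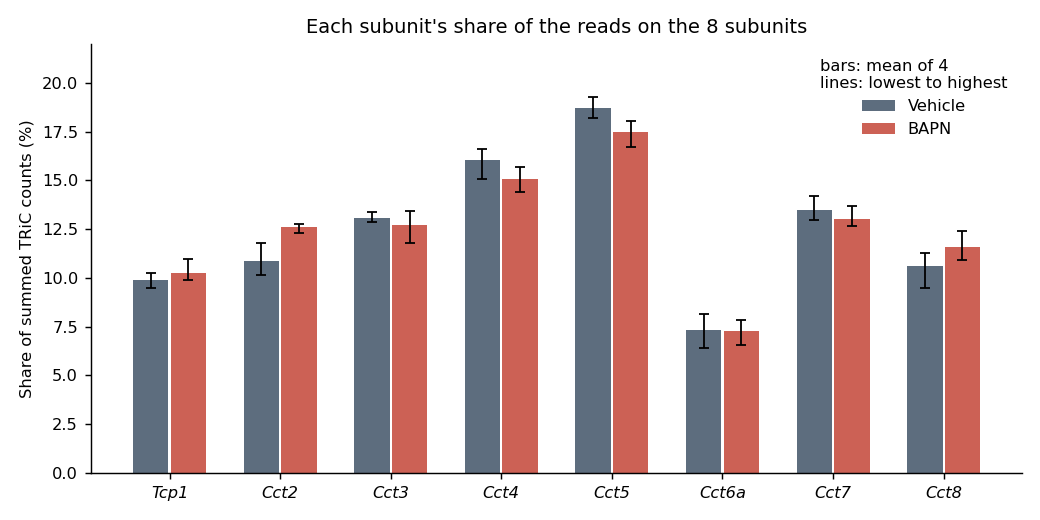
Share of the summed TRiC counts taken by each subunit (vertical axis, percent), as the mean of 4 libraries (bars) with lines from the lowest to the highest library. The Cct2 bar is higher with BAPN (12.6 against 10.9%) and the Cct5 bar lower (17.5 against 18.7%), and the lines of the other 6 subunits overlap.

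The subunits were also compared within their groups. After subtraction of each group's mean log2 CPM, Vehicle 3 was the one library in which all 8 subunits lay below their mean, by 0.09 on average and by 0.26 for Cct6a. BAPN 3, Vehicle 2 and Vehicle 4 each had 6 of 8 subunits above the mean, and BAPN 1 had 2 of 8. Over the 28 pairs of subunits the correlation of these deviations across the 8 libraries had a median of 0.22, from -0.41 for Cct3 with Cct5 to 0.77 for Cct2 with Cct7, and 22 of the 28 were above 0. The libraries share their scaling factors, so the pairs are not independent. The 5 genes whose deviations followed the mean of the 8 subunits most closely, among 10967 named genes, were Pomt1 (r = 0.97), Ska2 (0.96), Gatad1 (0.96), Slc2a8 (0.96) and Nudt5 (0.96). They are the highest of 10967 correlations over 8 libraries, and the height that chance would give was not computed. Among the 5, Ska2, a subunit of the spindle and kinetochore complex, rose with BAPN (log2 fold change 0.98, edgeR adjusted p = 0.0198), and the other 4 had log2 fold changes of -0.16 to 0.25 that did not pass.

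**Figure D3:**
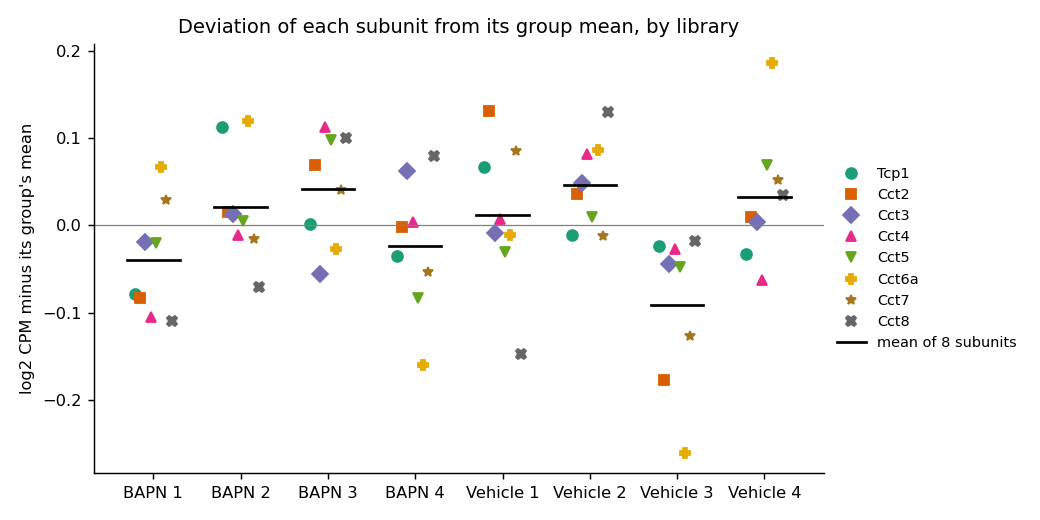
Log2 CPM of each subunit minus the mean of its own group (vertical axis) in each of the 8 libraries, with a black line for the mean of the 8 subunits. In Vehicle 3 all 8 symbols lie below 0, and in the other libraries they fall on both sides of it.

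Sex was not used to choose the complex, and it allowed a second comparison. With treatment in the fit, the log2 fold changes of male against female veins ran from -0.13 for Cct6a (SE 0.13) to 0.05 for Cct8 (SE 0.12). None of the 8 passed the threshold in edgeR's quasi-likelihood test or in DESeq2, and none had an unadjusted p under 0.05 in edgeR, the smallest being 0.365 for Cct6a. Over all tested genes 1 was called (0.00856%), and 221 had an unadjusted p under 0.05. The difference of the BAPN effect between the sexes rested on 1 BAPN male. It was called for 0 of all tested genes in edgeR, where 1442 genes and 0 of the 8 subunits had an unadjusted p under 0.05, and it was not run in DESeq2.

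Among the other genes of the folding pathway, 86 were listed, 77 had counts high enough to test, and 16 rose and 1 fell with BAPN. That is 22.1% called, against 16.8% of all tested genes (7.5% higher and 9.25% lower), and the median log2 fold change was 0.16. The count was 28 in DESeq2, which called 27.4% of all genes it tested. It was 11 with sex in the fit and 0 in the females alone, where 930 and 89 of all 11682 tested genes were called. In the females alone 23 of the 77 had an unadjusted p under 0.05 in edgeR. Leaving out single libraries gave 14, 13, 10 and 9 called genes without BAPN 1 to 4, and 3, 14, 11 and 11 without Vehicle 1 to 4.

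Of the other chaperonins, 3 of 5 tested rose (60%), beside 7.5% of all tested genes called higher. They were Hspe1 and Hspd1, the lid and the barrel of the mitochondrial chaperonin, and Mkks, a chaperonin-like protein of the BBSome assembly complex. Hspe1 had the largest difference of these, from 24.6 ± 0.995 to 45.7 ± 7.39 CPM (SD, n = 4 each; log2 fold change 0.89, edgeR adjusted p = 0.00806). Hspd1 rose from 107 ± 12.6 to 165 ± 7.81 CPM (log2 fold change 0.62, edgeR adjusted p = 0.0133) and Mkks by 0.59 (edgeR adjusted p = 0.0161, and 0.0516 without Vehicle 1). Cct6b, the zeta paralog known from testis, had 0 to 17 counts per library, and Cct8l1 had 0 to 2, so neither was tested. A count of 0 allows up to 3 counts, which is 0.0592 to 0.148 CPM in these libraries.

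Prefoldin meets the client before TRiC does. All 9 tested genes of prefoldin and its relatives had log2 fold changes above 0, with a median of 0.38. Of these 9, 4 rose (44.4%), beside 7.5% of all tested genes called higher. Pfdn4, at 23.5 ± 3.37 against 14.4 ± 1.01 CPM (SD, n = 4 each), had a log2 fold change of 0.71 (edgeR adjusted p = 0.0161), and Pdrg1, a prefoldin-like protein, one of 0.69 (edgeR adjusted p = 0.0194). Pfdn5 and Pfdn1, subunits of the canonical complex, were nearer the threshold, with log2 fold changes of 0.57 (edgeR adjusted p = 0.0462) and 0.54 (edgeR adjusted p = 0.0388). Vbp1, also a prefoldin subunit, was at 69.5 ± 12.7 and 61.7 ± 8.68 CPM (log2 fold change 0.17, edgeR adjusted p = 0.444). Of 3 phosducin-like cofactors tested, 1 rose (33.3%, beside the same 7.5%), Txndc9, by 0.38 (edgeR adjusted p = 0.0424). Pdcl3 had a log2 fold change of 0.30 with every BAPN library above every vehicle library (edgeR adjusted p = 0.0661, DESeq2 adjusted p = 0.0305). Leaving out single libraries took the edgeR adjusted p of Pfdn5 to between 0.0466 and 0.12, of Pfdn1 to between 0.0427 and 0.104, and of Txndc9 to between 0.0425 and 0.103. Without Vehicle 1 it was 0.0525 for Pfdn4 and 0.0527 for Pdrg1, and without BAPN 3 it was 0.0517 for Pdrg1.

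Downstream of the rings, 1 of 5 tubulin cofactors rose, a share of 20% beside 7.5% of all tested genes called higher. Tbca, which holds newly folded beta tubulin, went from 45.1 ± 6.15 to 74.9 ± 13.5 CPM (SD, n = 4 each; log2 fold change 0.73, edgeR adjusted p = 0.0188, and 0.0583 without Vehicle 1). Tbcd, which acts at a later step, had a log2 fold change of -0.33 (edgeR adjusted p = 0.116), and Tbcb had 1 to 6 counts per library and was not tested.

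None of 9 tested actins and actin-related proteins passed in edgeR, 4 had an unadjusted p under 0.05, 4 were called by DESeq2, and the median log2 fold change was -0.10. Actb, cytoplasmic beta actin, was lower in every BAPN library than in every vehicle library, at 5962 ± 705 against 8207 ± 1018 CPM (SD, n = 4 each; log2 fold change -0.46, edgeR adjusted p = 0.119, DESeq2 adjusted p = 0.00542). Acta2, smooth muscle actin, was at 688 ± 429 and 1154 ± 524 CPM, with groups that overlapped (log2 fold change -0.75, edgeR adjusted p = 0.26).

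Of 14 tubulins 2 rose, which is 14.3%, beside 7.5% of all tested genes called higher. Tuba1b, an alpha tubulin of most tissues, went from 325 ± 47.1 to 488 ± 55.0 CPM (SD, n = 4 each; log2 fold change 0.59, edgeR adjusted p = 0.0297), and Tuba4a had a log2 fold change of 0.84 (edgeR adjusted p = 0.0284). Without 1 library their edgeR adjusted p ran to 0.0899 and 0.08. Tubb5, a beta tubulin, had means of 654 ± 61.3 and 720.0 ± 94.6 CPM (log2 fold change -0.14, edgeR adjusted p = 0.525). Some tubulin genes of the same family, among the alpha and among the beta tubulins, are near-identical, and how the deposited counts treated reads that fit several of them was not given in the sources used here. The same holds for processed pseudogenes of the subunits. None of 15 other clients passed in edgeR, with 2 at an unadjusted p under 0.05 and 1 called by DESeq2, and the G protein beta subunits Gnb1 and Gnb2 had log2 fold changes of -0.06 and -0.08.

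Of 17 heat shock factors and cytosolic chaperones tested, 5 rose and 1 fell, and the median log2 fold change was 0.29. That is 35.3% called, beside 16.8% of all tested genes, 7.5% as higher and 9.25% as lower. Hspa8, the constitutive Hsc70 that delivers clients to folding complexes, rose from 568 ± 57.6 to 1014 ± 178 CPM (SD, n = 4 each; log2 fold change 0.84, edgeR adjusted p = 0.0164). Ahsa1, which activates the ATPase of Hsp90, and Stip1, which links Hsp70 with Hsp90, rose by 0.49 (edgeR adjusted p = 0.0161) and 0.40 (edgeR adjusted p = 0.0206). Bag3, a co-chaperone of Hsp70 in selective autophagy, fell by 0.50 on the log2 scale (edgeR adjusted p = 0.0161), with every BAPN library below every vehicle library. Without Vehicle 1 the edgeR adjusted p was 0.0525 for Ahsa1, 0.0636 for Stip1 and 0.0516 for Bag3, and Stip1 also missed the threshold without BAPN 2 (0.0504) or BAPN 4 (0.0558). Hsp90ab1, cytosolic Hsp90 beta, was at 1119 ± 76.2 and 899 ± 65.0 CPM with no overlap (log2 fold change 0.32, edgeR adjusted p = 0.129, DESeq2 adjusted p = 0.0154). Hsf1 and Hsf2, 2 of the factors that bind the heat shock element, were singled out after their values were seen, with log2 fold changes of -0.03 (edgeR adjusted p = 0.844) and 0.48 (edgeR adjusted p = 0.0396).

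**Figure D4:**
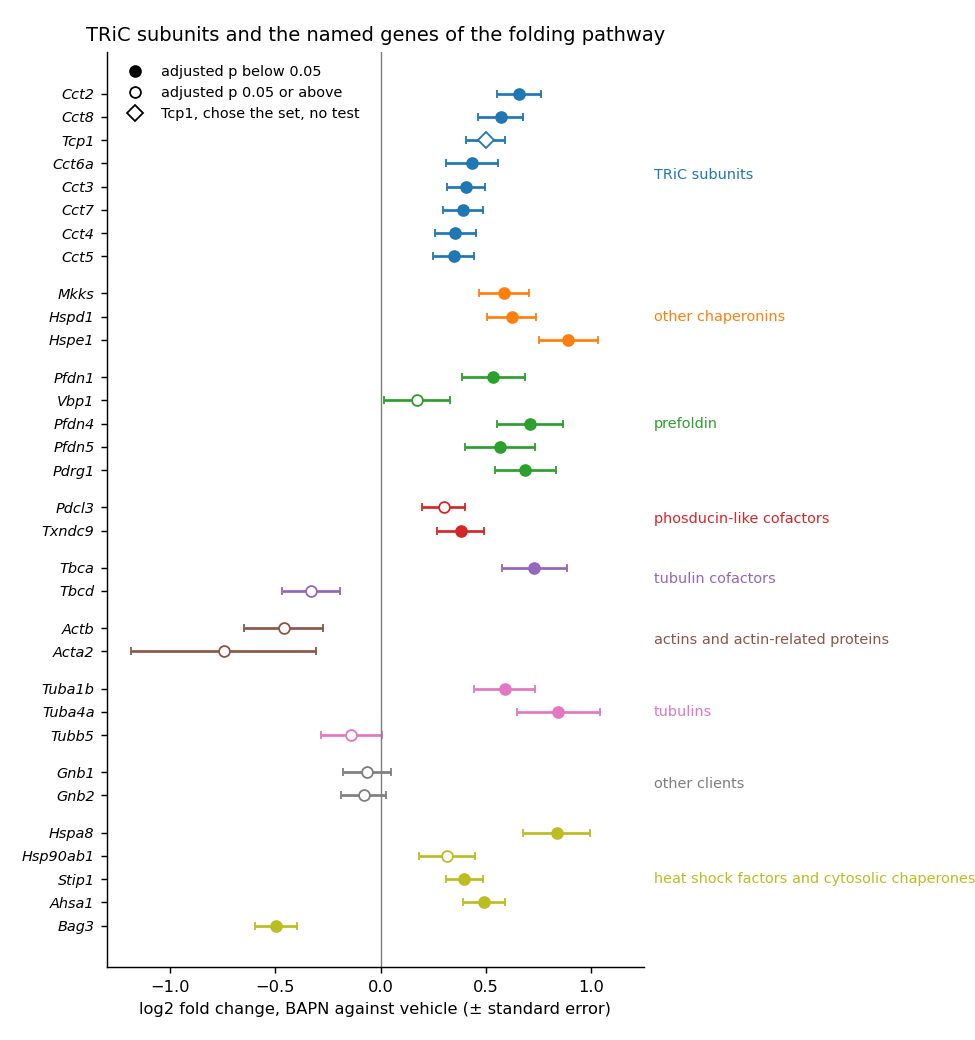
Log2 fold change of BAPN against vehicle ± SE (horizontal axis) for the 8 TRiC subunits and the named genes of the folding pathway, filled where the edgeR adjusted p is below 0.05 and a diamond for Tcp1, which was not tested. The subunits lie between 0.35 and 0.66, Hspe1 at 0.89, and the named actins, Tubb5, Gnb1 and Gnb2 lie below 0 with open symbols.

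Several other measures differed between the groups beside the subunits, and their part in these differences was not tested. The counts below stand beside 7.5% of all tested genes called higher and 9.25% called lower. Of the 13 proteasome core subunits tested, another large assembly of the cytosol, 9 rose, with a median log2 fold change of 0.55. Of 12 cell cycle genes 1 rose (8.33%, near that share), Pcna (log2 fold change 0.66, edgeR adjusted p = 0.0157), while Mki67 had 0.34 (edgeR adjusted p = 0.196). Of the 12, 10 had log2 fold changes above 0, with a median of 0.31, and 3 had an unadjusted p under 0.05 in edgeR. Among markers of the vein wall, 5 of 8 smooth muscle markers fell, and their summed level was 1662 to 4225 CPM with BAPN and 3218 to 5977 CPM with vehicle. For endothelial markers 2 of 7 fell, with sums of 479 to 635 against 776 to 1533 CPM, and for fibroblast markers 2 of 8, with 3730 to 5295 against 4089 to 7564 CPM. None of 9 macrophage markers passed in edgeR (3 at an unadjusted p under 0.05 and 3 called by DESeq2), but their sum, most of it Lyz2, did not overlap, at 27999 to 42010 CPM against 5741 to 23177 CPM. Lyz2 and Fcer1g were the 2 markers without overlap, and the groups overlapped for the other 7, whose log2 fold changes ran from -0.25 for Cd163 to 1.14 for Cd14. Of the 9, 8 had log2 fold changes above 0, with a median of 0.54.

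For other cells that a vein segment can hold, the summed levels overlapped between the groups, but single markers did not always, and most sums were carried by 1 gene. The counts again stand beside 7.5% of all tested genes called higher and 9.25% called lower. Of 6 T cell markers 2 rose, Cd2 (13.9 to 22.6 against 4.76 to 9.14 CPM) and Cd8a (15.9 to 24.1 against 3.65 to 12.2 CPM), both without overlap. The T cell sum of 343 to 441 against 287 to 492 CPM was mostly Cd4, which had a log2 fold change of -0.07, while the 5 other markers had log2 fold changes from 1.02 to 1.41. Of 3 B and plasma cell markers 2 passed, Mzb1 and Cd79b, but their groups overlapped because of BAPN 4, the BAPN male. For Mzb1 that library had 0.167 CPM, the 3 BAPN females 15.1 to 41.5 CPM, and the vehicle veins 0.187 to 1.77 CPM. The sums, mostly of Jchain, were 6.66 to 219 against 12 to 37.0 CPM. Of 5 adipocyte markers 1 fell, Plin1 (log2 fold change -2.13). The adipocyte sum of 1097 to 2936 against 489 to 1738 CPM was nearly all Fabp4 (log2 fold change 0.70, not called) and pointed the other way from Adipoq, Cidec and Lipe, whose log2 fold changes were -1.61, -1.43 and -0.90. None of those passed, and the 2 groups did not overlap for Lipe. None of the 2 skeletal muscle markers tested passed in edgeR, with 1 at an unadjusted p under 0.05 and 1 called by DESeq2, and the sums were 18.4 to 31.8 against 19.1 to 73.9 CPM. None of the 3 epithelial and mammary markers tested passed, with 1 at an unadjusted p under 0.05 and 0 called by DESeq2, and the sums were 3.11 to 91.7 against 3.37 to 70.3 CPM. No marker was at 0 in all 8 libraries. In whole veins, fewer cells of a type and less RNA per cell cannot be told apart, and the same holds for more of either.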

How the data were processed

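RNA of 8 rat veins had been extracted with Trizol, depleted of ribosomal RNA and sequenced from stranded total RNA libraries. The deposited files hold raw read counts per gene, 1 file per animal, and the submitters' notes name bcl2fastq 2.17, Trim Galore and STAR. The counting tool, its strand setting and the genome build of the files were not given in the sources used here. The study's methods name DESeq without covariates and leave out genes with a base mean under 100, a filter kept here (11682 genes, 99.5 to 99.7% of all counts). Groups, replicate numbers and sex came from the labels.

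BAPN and vehicle were compared with edgeR 4.0.16 (quasi-likelihood test, TMM scaling, R 4.3.3), p-values adjusted after Benjamini-Hochberg across the 11682 genes, and a threshold of 0.05. Standard errors came from limma 3.58.1 (voom). Fold changes are edgeR's and use no pseudocount of the text's own, while log2 CPM for deviations used a prior count of 2. Sex was tested with treatment in the fit. DESeq2 1.42.0, other scalings, other filters, sex as a covariate, females alone, thinned counts, a replicate block and leaving out each library were the alternatives. On counts simulated for this comparison over 11682 genes, 200 of them changed by 1.5 on the log2 scale, 175 (87.5%) were recovered with 8 false calls. That change is larger than the 0.35 to 0.66 of the subunits, so recovery and false calls at their size were not measured. No 2 libraries of the same group were alike within sampling noise. The p-values rest on 4 animals a group.

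The members, lists and tests were chosen with earlier results of these data known. Genes named are the 8 subunits and, in each list, those called (the 4 with the smallest adjusted p where there were more) and the 2 with the highest mean CPM, and the 5 genes closest to the subunits in their deviations. The proteasome core genes that this rule chose were checked for outlying libraries, but the text gives only the values of their list. Hsf1, Hsf2, the list genes with too few counts to test (Cct6b, Cct8l1 and Tbcb) and single cell type markers were named outside this rule, after their values were seen. Of 187 listed symbols, 5 (Hspa1a, Psma3, Pecam1, Trac and Myh1) were not analysed here. Cct8l1 had 2 entries, of which the one with more counts was used. No protein sequences and no transcript lengths were used.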

Additional observations from a re-analysis of the deposited data

Results flagged for a closer look

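Among the 8 subunits and the 32 other genes that the naming rule chose from the lists, 80 groups of 4 libraries were checked. Dixon's gap test at the 95% level looked for a library far from the other 3, and 3 were found. Chance alone gives about 1 in 20, and no subunit was among them. Hspe1, the lid of the mitochondrial chaperonin, had 56.7 CPM in BAPN 3 while the other BAPN animals had 41.2 to 43.4 CPM. Leaving BAPN 3 out gave a log2 fold change of 0.77 (edgeR adjusted p = 0.0127). Gnb1, a G protein beta subunit, had 306 CPM in Vehicle 3 while the remaining vehicle animals had 332 to 335 CPM, and leaving Vehicle 3 out gave a log2 fold change of -0.10 (edgeR adjusted p = 0.626). Mki67, a marker of cycling cells, had 97.9 CPM in Vehicle 2 while the rest of its group had 65.9 to 66.7 CPM, and leaving Vehicle 2 out gave a log2 fold change of 0.50 (edgeR adjusted p = 0.0512). The cause of these 3 values was not tested.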

How the results depend on the processing

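Of the 7 tested subunits called, all 7 were called with DESeq2, with RLE or upper quartile factors, with edgeR's own expression filter and with counts thinned to the smallest total, and 5 with no filter on low counts. Total counts only gave 3, sex as a covariate 3, females alone 0, and single libraries left out 1 (without Vehicle 1) to 6 (without Vehicle 2). Of the folding partners, 17 as reported, DESeq2 called 28, sex as a covariate left 11, females alone 0, and leaving out 1 library 3 to 14. Over all tested genes, 1957 as reported, DESeq2 called 3202, sex as a covariate left 930, females alone 89, and leaving out 1 library 397 to 2215. Scaling by total counts only made 504 of 1665 calls higher with BAPN (30.3%), against 876 of 1957 (44.8%) as reported, and moved the median log2 fold change of all genes from 0.02 to -0.04 and that of the 8 subunits from 0.42 to 0.37. Whether replicate numbers pair the animals was not given in the sources used here. The deviations of equally numbered libraries correlated at 0.09, -0.26, 0.27 and -0.14. Unequally numbered ones ran from -0.35 to 0.36, so these values cannot decide it. With the replicate number as a block 2 subunits, 3 partners and 556 genes were called, and 36.0% of those genes were higher. No subunit was called for sex under any alternative run. For BAPN against vehicle no fold change of the 7 tested subunits turned sign. The females alone were 3 against 2 animals, and groups of 4 limit what any of these fits can call.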
